A study of Arabidopsis thaliana with 10 samples.

Results

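WRKY transcription factors were followed through 10 RNA libraries from leaves of Arabidopsis thaliana. The set holds every row of the deposited count files whose name is WRKY and a number, except WRKY6, WRKY22, WRKY45, WRKY53 and WRKY75, which were left aside by the rule of choice. This gave 62 of the 33028 rows, and no WRKY name stood on more than 1 row. All 62 could be paired with a locus code, of which 14 lie on chromosome 1, 15 on chromosome 2, 5 on chromosome 3, 14 on chromosome 4 and 14 on chromosome 5.

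RNA came from leaves (the fifth and the sixth of each rosette) of plants aged 4 weeks and kept at 22 °C in a 16 h day and an 8 h night. There were 5 groups of 2 libraries each. RanG22V D3 and RanG22V D0 are labelled as a line that overexpresses RanG22V, the GTP form of the small GTPase Ran, which drives transport through the nuclear pore. RanT27N D3 and RanT27N D0 are labelled as a line that overexpresses RanT27N, the GDP form, and Col D0 is the wild type Col-0. D0 leaves were harvested on being detached, and D3 leaves were kept for 3 days in darkness after that. No Col group was labelled D3. The sources used here give neither the promoter of the transgenes, the number of independent lines nor the number of plants in a library. They also do not say whether the 2 libraries of a group are separate plants, so a p-value here reflects the spread between libraries alone, and that spread may be technical.

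For 8 of the 10 libraries the name in the header of the count file disagreed with the sample label. Libraries labelled RanG22V D3 are headed RanT27N D3 and those labelled RanG22V D0 are headed RanG22V D3. Libraries labelled RanT27N D3 are headed RanT27N D0 and those labelled RanT27N D0 are headed RanG22V D0, while for Col D0 both names are the same. Every group name used here is that of the label. The meaning under the headers is given once for each comparison, where its called factors are counted, because the 2 readings give different contrasts. They cannot be told apart from the labels. Paragraphs on single factors and on pathway genes use the label names alone, so a line or day named there holds by the labels only.

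WRKY proteins are a large family of plant transcription factors named for a conserved stretch in their DNA-binding domain. They bind the W-box, a short DNA element that is common in the promoters of defence genes and of WRKY genes themselves, so that members of the family act on each other. In leaves they are known for their part in the response to pathogens, in signalling through salicylic acid and jasmonate, and in the timing of senescence. The family is divided by the number of WRKY domains and the form of the zinc finger into subgroup I, subgroups IIa to IIe and subgroup III.

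The promoters of the WRKY factors called in at least 1 comparison were searched for the W-box, spelled TTGACC or TTGACT, on both strands. Of the 15 called factors, 5 held at least 1 W-box in the 250 bases before the annotated start of the gene, and their sequences are shown because they bear the element through which WRKY proteins act on WRKY genes. They were read from the TAIR10.1 genome of RefSeq by locus, since the rows of the count files carry names and no positions, and each runs 5′ to 3′ on the strand of the gene, with W-boxes in capitals. The 250 bases shown lie at chr2:9924636-9924885 on the plus strand for WRKY15 and at chr5:2203956-2204205 on the plus strand for WRKY26. They lie at chr5:8154711-8154960 on the minus strand for WRKY30 and at chr2:16107985-16108234 on the plus strand for WRKY33. For WRKY62 they lie at chr5:352096-352345 on the minus strand.
WRKY15: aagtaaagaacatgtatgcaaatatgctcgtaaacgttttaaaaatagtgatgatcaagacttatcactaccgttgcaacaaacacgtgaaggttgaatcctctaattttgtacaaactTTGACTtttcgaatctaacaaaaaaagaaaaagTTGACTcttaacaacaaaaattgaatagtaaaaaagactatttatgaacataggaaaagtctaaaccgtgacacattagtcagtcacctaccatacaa
WRKY26: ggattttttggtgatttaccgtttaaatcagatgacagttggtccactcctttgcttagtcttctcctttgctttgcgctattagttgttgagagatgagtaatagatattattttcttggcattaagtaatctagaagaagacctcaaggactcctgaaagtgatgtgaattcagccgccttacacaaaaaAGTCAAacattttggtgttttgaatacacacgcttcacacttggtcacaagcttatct
WRKY30: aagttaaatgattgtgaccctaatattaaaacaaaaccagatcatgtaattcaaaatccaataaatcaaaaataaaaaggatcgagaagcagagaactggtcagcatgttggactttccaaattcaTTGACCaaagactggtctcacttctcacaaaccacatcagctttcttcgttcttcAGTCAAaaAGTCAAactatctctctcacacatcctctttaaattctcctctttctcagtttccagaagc
WRKY33: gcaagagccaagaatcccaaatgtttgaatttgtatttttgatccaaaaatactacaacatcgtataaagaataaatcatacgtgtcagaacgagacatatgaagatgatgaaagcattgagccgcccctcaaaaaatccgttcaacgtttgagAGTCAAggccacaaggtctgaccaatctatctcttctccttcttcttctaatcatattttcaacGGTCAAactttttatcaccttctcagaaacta
WRKY62: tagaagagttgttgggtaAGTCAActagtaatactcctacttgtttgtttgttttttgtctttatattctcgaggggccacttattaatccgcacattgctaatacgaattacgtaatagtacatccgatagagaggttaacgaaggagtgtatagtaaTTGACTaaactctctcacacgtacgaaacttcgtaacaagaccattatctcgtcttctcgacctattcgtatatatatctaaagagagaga
The promoter of WRKY30 held 3 W-boxes, those of WRKY15, WRKY33 and WRKY62 held 2 each, and that of WRKY26 held 1. Among all 62 factors, 21 promoters (33.9%) held a W-box and 8 (12.9%) held 2 or more, against 28.4% and 6.18% of 27437 promoters of protein-coding genes of the same length. A match is a description of these letters and not a bound site.

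Libraries held 14187505 to 24496672 counts, of which rows of ribosomal RNA took 8.19% to 24.54%. Values are given as CPM, counts scaled to library size by TMM, a level that can be compared between libraries for 1 gene but not between genes, since the read positions on the transcript are not known from the labels. The leaf mesophyll list (6 of 6 genes passed the filter on low counts) summed to 704.6 to 881 CPM in RanG22V D3 and 170 to 395 CPM in RanG22V D0, against 5868 to 9806 CPM in RanT27N D3, 7619 to 9814 CPM in RanT27N D0 and 7171 to 8491 CPM in Col D0. The phloem list (4 of 4 passed) summed to 74.9 to 79.5 CPM in RanG22V D3 and 62.6 to 67.0 CPM in RanG22V D0, and to 221 to 500.4 CPM in the other 3 groups. The epidermis list (3 of 4 passed, PDF1 at 0) ran from 80.2 to 82.2 CPM in RanG22V D3 and from 36.8 to 53.9 CPM in RanG22V D0, and from 118 to 192 CPM in the other 3 groups. The trichome list (2 of 3 passed, GL1 at 0) ran from 74.1 to 93.4 CPM in RanG22V D3 and from 45 to 52 CPM in RanG22V D0, and from 91.1 to 215 CPM in the other 3 groups. The guard cell list (5 of 5 passed) lay between 58.5 and 76.1 CPM in all groups, and the flower, seed and root list (3 of 9 passed, CRU3 and PLT1 at 0) at 13.7 CPM or below. The mesophyll, phloem and epidermis sums were lower in the 2 pairs labelled RanG22V than in the other 3 groups. Those 2 pairs are also the pairs headed D3, and the sums move with every comparison of them below against another group. The trichome sum of RanG22V D3 (up to 93.4 CPM) overlapped that of RanT27N D0 (from 91.1 CPM). The phloem gene SUC2 and the epidermis genes ATML1 and FDH were lower in both those pairs than in every other library. The phloem gene APL had 20.39 and 19.74 CPM in RanG22V D3, against 9.73 and 17.8 CPM in Col D0. The epidermis gene CER5 had 21.2 and 22.4 CPM in RanG22V D3, against 20.5 and 16.1 CPM in Col D0. The part of these lists in the WRKY results was not tested. The sums are levels of the listed genes alone. In whole leaves, lower expression of those genes, fewer cells of a type and less RNA per cell cannot be told apart.

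Of the 62 factors, 49 passed the filter on low counts and were tested, and 13 did not. Subgroup I had 10 tested of 12, subgroup IIa 3 of 3, IIb 7 of 7, IIc 10 of 16, IId 6 of 7, IIe 4 of 6 and III 9 of 11. The factors under the filter were WRKY10 with at most 10 counts in a library, WRKY12 with 2, WRKY14 with 9, WRKY24 with 4, WRKY34 with 2, WRKY35 with 3, WRKY43 with 12, WRKY49 with 7, WRKY64 with 14, WRKY66 with 6 and WRKY74 with 6. WRKY56 and WRKY68 had 0 counts in all 10 libraries, which with a floor of 3 counts allows a level of up to about 0.174 CPM in the shallowest group (a limit that covers counting error only). Of the 49 tested factors, 15 were called by edgeR in at least 1 comparison at an adjusted p below 0.05 and 34 in none, and DESeq2, run as an alternative, called 9 of those 34. Where no tool is named, a call is that of edgeR.

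The highest group mean lay in RanT27N D0 for 19 of the 49 factors (38.8%, against 16.1% of all 21475 genes tested), in RanG22V D0 for 15 (30.6%, against 29.3%), in RanT27N D3 for 7 (14.3%, against 17.3%), in Col D0 for 6 (12.2%, against 18.2%) and in RanG22V D3 for 2 (4.08%, against 19.1%). The lowest group mean lay in RanG22V D3 for 20 (40.8%, against 19.7% of all genes), in RanT27N D3 for 14 (28.6%, against 18.9%), in RanT27N D0 for 6 (12.2%, against 14%), in RanG22V D0 for 3 (6.12%, against 27.8%) and in Col D0 for 2 (4.08%, against 16.6%). For WRKY13, WRKY59, WRKY67 and WRKY72 the lowest value was shared by more than 1 group. These are descriptions of group means with no test. A group mean can rest on 1 library, as for WRKY62 in RanT27N D0, with 2.68 and 136 CPM.

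**Figure D1:**
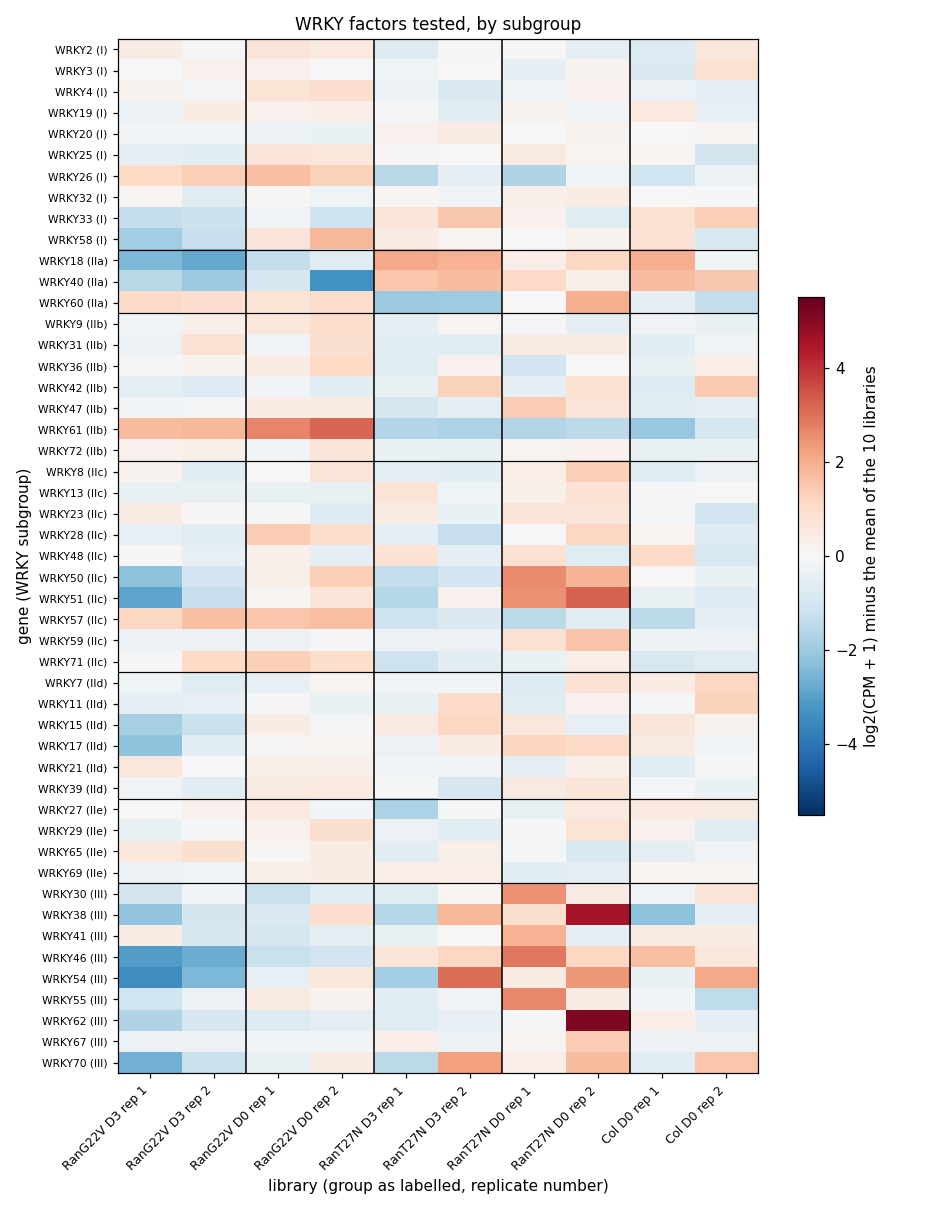
Heat map of the 49 WRKY factors tested (rows, by subgroup) in the 10 libraries (columns, 2 per labelled group), coloured by log2(CPM + 1) minus the mean of the 10 libraries for that factor. WRKY61, WRKY57 and WRKY26 are red in the 4 libraries labelled RanG22V and blue in the rest. WRKY40 and WRKY46 are blue in those 4. How many of all genes tested part those 4 libraries from the rest was not counted. Many subgroup III rows are red in RanT27N D0 libraries, with the 2 libraries of that pair apart from each other.

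WRKY18 (AT4G31800), WRKY40 (AT1G80840) and WRKY60 (AT2G25000) make up subgroup IIa. They carry a leucine zipper, bind each other and have overlapping parts in defence and in abscisic acid responses. WRKY18 had 28.1 and 21.6 CPM in RanG22V D3, 63.6 and 101 CPM in RanG22V D0, 669 and 595 CPM in RanT27N D3, 205 and 348 CPM in RanT27N D0, and 641 and 136 CPM in Col D0. All 4 libraries labelled RanG22V were lower than all 6 others. The share of all genes tested with such a split was not counted, here or for the factors below. WRKY18 fell in RanG22V D3 against RanT27N D3, with a log2 fold change of -4.67 ± 0.72 (SE, edgeR's quasi-likelihood test with Benjamini-Hochberg adjustment over all genes, adjusted p = 0.00589). It also fell in RanG22V D3 against Col D0 (-3.96 ± 0.70, adjusted p = 0.00939) and in RanG22V D0 against Col D0 (-2.24 ± 0.65, adjusted p = 0.0342). The last value rested on 1 library, since without Col D0 replicate 1 it was -0.73 with an adjusted p of 0.288, and the log2 fold change of RanG22V D3 against Col D0 was -2.40 without that library and -4.71 without Col D0 replicate 2.

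WRKY40 had 28.4 and 20.1 CPM in RanG22V D3, 43.2 and 7.37 CPM in RanG22V D0, 245 and 275 CPM in RanT27N D3, 176 and 103 CPM in RanT27N D0, and 272 and 235 CPM in Col D0. As for WRKY18, the 4 libraries labelled RanG22V were below all others. WRKY40 fell in RanG22V D3 against RanT27N D3 (log2 fold change -3.42 ± 0.71, SE, adjusted p = 0.0175) and against Col D0 (-3.38 ± 0.71, adjusted p = 0.0177). It fell likewise in RanG22V D0 against RanT27N D0 (-2.47 ± 0.68, adjusted p = 0.0348) and against Col D0 (-3.33 ± 0.71, adjusted p = 0.00929). The spread between the 2 RanG22V D0 libraries bears on the D0 values. Without replicate 2 of that pair the change against RanT27N D0 was -1.70 with an adjusted p of 0.0796, and against Col D0 it was -2.55, while without replicate 1 these were -4.24 and -5.10. A gene on the opposite strand, AT1G80850, overlaps WRKY40 and holds 13950 counts over the 10 libraries, against 27002 for WRKY40, and since the strand setting of the counting is not given, reads of the pair cannot be told apart.

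WRKY60, the third of the subgroup, had 25.6 and 23.5 CPM in RanG22V D3, 20.4 and 24.1 CPM in RanG22V D0, 2.23 and 2.30 CPM in RanT27N D3, 11.5 and 50.7 CPM in RanT27N D0, and 8.13 and 4.20 CPM in Col D0. The RanT27N D3 libraries were the lowest and RanT27N D0 replicate 2 the highest. WRKY60 rose in RanG22V D3 against RanT27N D3 by 3.43 ± 0.65 on the log2 scale (SE, adjusted p = 0.0126), where WRKY18 and WRKY40 fell. The value stayed between 3.37 and 3.5 when a library was left out, but without any 1 of the 4 libraries compared it no longer passed (adjusted p of 0.0545 to 0.0731). In RanG22V D0 against RanT27N D0 its log2 fold change of -0.48 ± 0.58 had the sign of the other two and did not pass. Its value of -3.78 ± 0.66 in RanT27N D3 against RanT27N D0 did not pass (adjusted p = 0.0542). The 2 pairs did not overlap there, and 21.5% of all genes tested were likewise lower without overlap.

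WRKY33 (AT2G38470) and WRKY25 (AT2G30250) are subgroup I factors that act below the kinase MPK4, and WRKY33 is needed for resistance to necrotrophic fungi and for synthesis of the phytoalexin camalexin. WRKY33 had 44.1 and 47.2 CPM in RanG22V D3, 95.8 and 49.9 CPM in RanG22V D0, 173 and 309.6 CPM in RanT27N D3, 129 and 67.8 CPM in RanT27N D0, and 197 and 271 CPM in Col D0. RanG22V D3 was below every other library, and RanG22V D0 overlapped RanT27N D0 only. WRKY33 fell in RanG22V D3 against RanT27N D3 (log2 fold change -2.40 ± 0.48, SE, adjusted p = 0.015) and against Col D0 (-2.36 ± 0.48, adjusted p = 0.0159), and in RanG22V D0 against Col D0 (-1.68 ± 0.47, adjusted p = 0.029). AT2G38480 on the opposite strand overlaps it, with 10423 counts against 26507 for WRKY33. WRKY25 had 56.4 and 55.9 CPM in RanG22V D3, 139 and 128 CPM in RanG22V D0, 87.2 and 81.6 CPM in RanT27N D3, 118 and 92.1 CPM in RanT27N D0, and 90.6 and 40.9 CPM in Col D0. The RanG22V D0 pair was the highest, but WRKY25 passed in no comparison by edgeR, whose smallest adjusted p was 0.0784, in RanG22V D0 against Col D0 (log2 fold change 1.02 ± 0.37, SE). DESeq2 called it there (adjusted p = 0.0423) and in RanG22V D3 against RanG22V D0 (log2 fold change -1.24, adjusted p = 0.0241).

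WRKY26 (AT5G07100), which acts with WRKY25 and WRKY33 in heat tolerance, had 56.6 and 65.0 CPM in RanG22V D3, 84.3 and 62.6 CPM in RanG22V D0, 8.36 and 17.9 CPM in RanT27N D3, 7.53 and 21.8 CPM in RanT27N D0, and 11.4 and 20.4 CPM in Col D0. The 4 libraries labelled RanG22V lay at 56.6 CPM or above and the other 6 at 21.8 CPM or below. WRKY26 rose by 2.21 ± 0.56 on the log2 scale in RanG22V D3 against RanT27N D3 (SE, adjusted p = 0.0355), by 2.32 ± 0.56 in RanG22V D0 against RanT27N D0 (adjusted p = 0.0193) and by 2.21 ± 0.55 in RanG22V D0 against Col D0 (adjusted p = 0.0193). Without RanT27N D0 replicate 1 its D0 value against RanT27N was 1.72 (adjusted p = 0.0874), and without replicate 2 it was 3.28. Without RanT27N D3 replicate 2 its D3 value was 2.84. The D3 call was kept in 4 of the 10 fits that each left out 1 library. The D0 calls were kept in 7 of 10 against RanT27N D0 and in 8 of 10 against Col D0.

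WRKY4 (AT1G13960), a subgroup I factor with a part in resistance to necrotrophs, had 23.8 and 19.8 CPM in RanG22V D3, 35.4 and 39.5 CPM in RanG22V D0, 16.0 and 11.6 CPM in RanT27N D3, 18.5 and 24.3 CPM in RanT27N D0, and 16.2 and 14.1 CPM in Col D0. RanG22V D0 was above all other libraries. WRKY4 rose in RanG22V D0 against Col D0 by 1.31 ± 0.29 on the log2 scale (SE, adjusted p = 0.0121) and passed in no other comparison. Its call was kept in 7 of the 10 fits that each left out 1 library. The last called member of subgroup I, WRKY58 (AT3G01080), is known as a negative regulator of systemic acquired resistance. Its means were 0.816 ± 0.595 CPM in RanG22V D3, 12.7 ± 6.97 CPM in RanG22V D0, 5.51 ± 0.807 CPM in RanT27N D3, 4.72 ± 0.528 CPM in RanT27N D0 and 5.02 ± 4.41 CPM in Col D0 (SD, n = 2 each). WRKY58 fell in RanG22V D3 against RanG22V D0 (log2 fold change -3.92 ± 0.81, SE, adjusted p = 0.0326), a value that was -3.22 without RanG22V D0 replicate 2 and -4.98 without RanG22V D3 replicate 2, with adjusted p of 0.15 and 0.108.

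WRKY61 (AT1G18860) of subgroup IIb had the largest increase of any called factor. It had 13.1 and 14.0 CPM in RanG22V D3, 26.8 and 38.1 CPM in RanG22V D0, 0.421 and 0.280 CPM in RanT27N D3, 0.416 and 0.592 CPM in RanT27N D0, and 0 and 1.17 CPM in Col D0. The 4 libraries labelled RanG22V held 199 to 797 counts and the other 6 held 21 counts or fewer. WRKY61 rose by 5.26 ± 1.03 on the log2 scale in RanG22V D3 against RanT27N D3 (SE, adjusted p = 0.0141), by 4.55 ± 0.97 in RanG22V D3 against Col D0 (adjusted p = 0.0192), by 5.99 ± 1.01 in RanG22V D0 against RanT27N D0 (adjusted p = 0.00413) and by 5.81 ± 1.01 in RanG22V D0 against Col D0 (adjusted p = 0.00376). Without Col D0 replicate 1, the library at 0, the changes against Col D0 were 3.57 for RanG22V D3 and 4.77 for RanG22V D0, and without replicate 2 only the library at 0 is left, so no fold is given.

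WRKY57 (AT1G69310) of subgroup IIc is known for drought tolerance and for restraining senescence induced by jasmonate. It had 30.9 and 43.9 CPM in RanG22V D3, 40.4 and 44.8 CPM in RanG22V D0, 5.47 and 7.35 CPM in RanT27N D3, 4.20 and 8.40 CPM in RanT27N D0, and 4.14 and 9.34 CPM in Col D0. The 4 libraries labelled RanG22V were again apart from the other 6. WRKY57 rose by 2.54 ± 0.47 on the log2 scale in RanG22V D3 against RanT27N D3 (SE, adjusted p = 0.0119), by 2.47 ± 0.47 in RanG22V D3 against Col D0 (adjusted p = 0.0127), by 2.75 ± 0.48 in RanG22V D0 against RanT27N D0 (adjusted p = 0.00456) and by 2.66 ± 0.47 in RanG22V D0 against Col D0 (adjusted p = 0.0042). Without Col D0 replicate 2 the changes against Col D0 were 3.16 for RanG22V D3 and 3.28 for RanG22V D0.

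WRKY50 (AT5G26170), also of subgroup IIc, can bind the PR1 promoter and takes part in the crosstalk of salicylic acid and jasmonate. Its means were 1.5 ± 1.38 CPM in RanG22V D3, 12.6 ± 6.27 CPM in RanG22V D0, 2.19 ± 0.466 CPM in RanT27N D3, 34.5 ± 12.5 CPM in RanT27N D0 and 5.44 ± 1.20 CPM in Col D0 (SD, n = 2 each). Both pairs labelled D3 were below the D0 pair of the same line label, with no overlap. Of all genes tested, 32% were lower in that way under the RanG22V label and 21.5% under the RanT27N label. WRKY50 fell in RanG22V D3 against RanG22V D0 (log2 fold change -3.03 ± 0.66, SE, adjusted p = 0.0392), a value that ran from -2.34 without RanG22V D3 replicate 1 to -4.55 without RanG22V D3 replicate 2 (adjusted p = 0.182 and 0.0555) and was -2.40 without RanG22V D0 replicate 2 (adjusted p = 0.184). The value for RanT27N D3 against RanT27N D0 was -3.97 ± 0.68, with an adjusted p of 0.0518.

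Of subgroups IId and IIe, 1 factor each was called. WRKY15 (AT2G23320), a calmodulin-binding IId factor of growth and salt stress, had 15.4 and 24.2 CPM in RanG22V D3, 77.4 and 53.9 CPM in RanG22V D0, 81.8 and 129 CPM in RanT27N D3, 89.9 and 41.4 CPM in RanT27N D0, and 90.4 and 65.8 CPM in Col D0. RanG22V D3 alone was low. WRKY15 fell in RanG22V D3 against RanT27N D3 (log2 fold change -2.41 ± 0.46, SE, adjusted p = 0.0131) and against Col D0 (-1.98 ± 0.46, adjusted p = 0.0259). With 1 library left out at a time, each of these calls was kept in 7 of 10 fits. The IIe factor WRKY69 (AT3G58710) had 13.7 and 14.5 CPM in RanG22V D3, 21.8 and 23.1 CPM in RanG22V D0, 22.3 and 22.1 CPM in RanT27N D3, 10.7 and 12 CPM in RanT27N D0, and 18.5 and 18.9 CPM in Col D0. The libraries of each pair were within 1.12-fold of each other, and WRKY69 rose in RanG22V D0 against RanT27N D0 by 0.98 ± 0.25 on the log2 scale (SE, adjusted p = 0.0262). This call was kept in 6 of the 10 fits that each left out 1 library. Opposite-strand genes also overlap WRKY69 (AT3G58720, with 1869 counts against 3482), WRKY4 (AT1G13970, with 504 against 4442) and WRKY61 (the non-coding AT1G05447, with 63 against 1935).

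Subgroup III holds WRKY46 (AT2G46400), WRKY54 (AT2G40750) and WRKY70 (AT3G56400), which act together in brassinosteroid growth and drought responses, and WRKY70 stands between salicylic acid and jasmonate signalling. WRKY46 had 9.57 and 12.2 CPM in RanG22V D3, 37.1 and 41.9 CPM in RanG22V D0, 139 and 191 CPM in RanT27N D3, 658 and 194 CPM in RanT27N D0, and 279 and 129 CPM in Col D0. The 4 libraries labelled RanG22V were below the other 6. WRKY46 fell in RanG22V D3 against RanT27N D3 (log2 fold change -3.92 ± 0.63, SE, adjusted p = 0.00652) and against Col D0 (-4.23 ± 0.64, adjusted p = 0.00544). It fell as well in RanG22V D0 against RanT27N D0 (-3.43 ± 0.61, adjusted p = 0.00511) and against Col D0 (-2.37 ± 0.58, adjusted p = 0.0179). Without Col D0 replicate 1 the changes were -3.52 for RanG22V D3 and -1.72 for RanG22V D0 (adjusted p = 0.0124 and 0.0736), and the change against RanT27N D0 was -2.32 without its replicate 1 and -4.06 without its replicate 2.

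WRKY70 had 32.3 and 89.0 CPM in RanG22V D3, 154 and 275 CPM in RanG22V D0, 73.3 and 1000.4 CPM in RanT27N D3, 269.6 and 694 CPM in RanT27N D0, and 139 and 605 CPM in Col D0. WRKY54, which like WRKY70 is known to hold back senescence, had 0.660 and 2.14 CPM in RanG22V D3, 12 and 25.2 CPM in RanG22V D0, 3.67 and 149 CPM in RanT27N D3, 23.2 and 90.8 CPM in RanT27N D0, and 12.8 and 72.7 CPM in Col D0. Both were lowest in RanG22V D3 by group mean. The 2 libraries of a pair were 1.79-fold to 13.7-fold apart for WRKY70 and 2.09-fold to 40.6-fold apart for WRKY54, least in RanG22V D0 and most in RanT27N D3. Neither passed in any comparison by edgeR. In RanG22V D3 against RanT27N D3, WRKY54 had a log2 fold change of -5.73 ± 1.64 (SE, adjusted p = 0.0549) and WRKY70 one of -3.15 ± 1.16 (adjusted p = 0.114). DESeq2 called WRKY54 there (-5.77, adjusted p = 0.00264) and in RanG22V D3 against Col D0 (-4.92, adjusted p = 0.0122), and did not call WRKY70. WRKY55 (AT2G40740), the neighbour of WRKY54 on chromosome 2 and a promoter of senescence, had 0.198 and 1.09 CPM in RanG22V D3, 2.65 and 2.01 CPM in RanG22V D0, 0.662 and 1.29 CPM in RanT27N D3, 15.3 and 2.45 CPM in RanT27N D0, and 1.35 and 0 CPM in Col D0. Its 2 RanT27N D0 libraries were 6.25-fold apart, and it passed in no comparison by either tool.

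For 8 of the 49 factors the 2 libraries differed in the same direction by replicate number in all 5 pairs. Replicate 2 was above replicate 1 in all 5 pairs for WRKY36, WRKY38, WRKY54, WRKY57 and WRKY70 (10.2% of the 49 factors, against 4.95% of all genes tested), and replicate 1 was above replicate 2 in all 5 pairs for WRKY23, WRKY25 and WRKY48 (6.12%, against 4.85%). WRKY38 and WRKY48 are described here after their values were seen. WRKY38 had 0.066 and 1.33 CPM in RanG22V D3, 1.73 and 8.04 CPM in RanG22V D0, 0.602 and 15.8 CPM in RanT27N D3, 7.76 and 112 CPM in RanT27N D0, and 0 and 2.41 CPM in Col D0. WRKY48, a brake on resistance to Pseudomonas, had 43.7 and 30.0 CPM in RanG22V D3, 50.8 and 29.1 CPM in RanG22V D0, 71.9 and 28.8 CPM in RanT27N D3, 76.1 and 25.8 CPM in RanT27N D0, and 86.5 and 21.9 CPM in Col D0. Of the factors listed by replicate number, edgeR called WRKY57, and DESeq2 called WRKY25 and WRKY54 besides. The mesophyll marker CAB3, a chlorophyll-binding protein of the light-harvesting complex, also differed by replicate number, with 160 and 1536 CPM in RanT27N D3, 54.7 and 1550 CPM in RanT27N D0 and 8.28 and 1579 CPM in Col D0, while it had 62.0 and 120 CPM in RanG22V D3 and 10.1 and 1.87 CPM in RanG22V D0. Other mesophyll markers did not follow CAB3. RBCS1A, RBCS1B, RBCS2B and RBCS3B were lower in replicate 2 than in replicate 1 in RanT27N D3 and in RanT27N D0. RBCS1A had 5356 and 2581 CPM in RanT27N D3, 5301 and 3534 CPM in RanT27N D0 and 3975 and 3996 CPM in Col D0. RCA had 500 and 569 CPM in RanT27N D3 and 518 and 472 CPM in RanT27N D0. The part of CAB3 in the WRKY values was not tested.

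**Figure D2:**
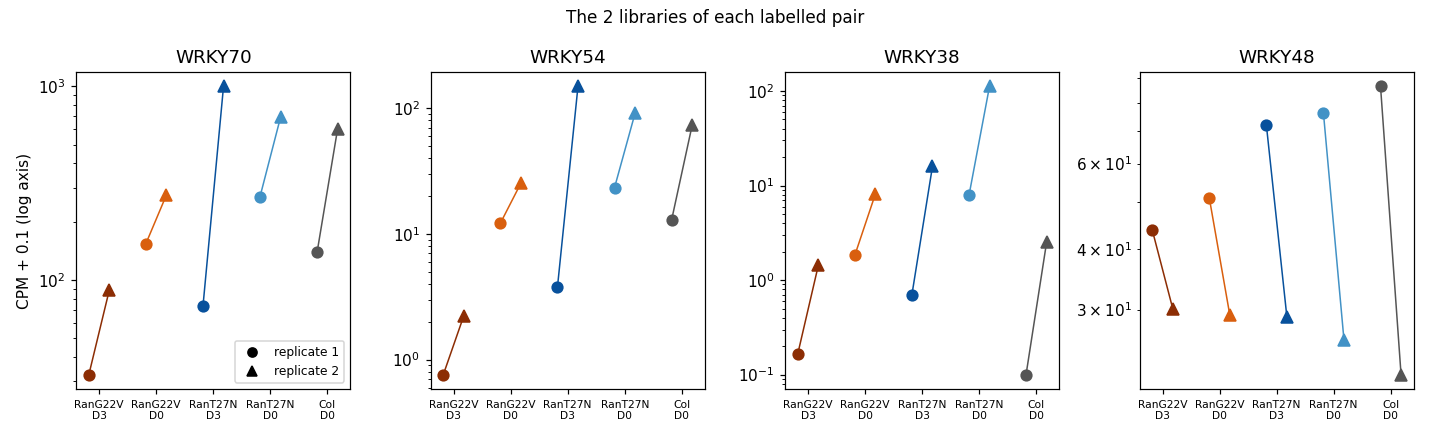
CPM + 0.1 on a log axis of WRKY70, WRKY54, WRKY38 and WRKY48 in the 2 libraries of each labelled pair, with circles for replicate 1, triangles for replicate 2 and a line joining the pair. Replicate 2 lies above replicate 1 in all 5 pairs for WRKY70, WRKY54 and WRKY38 and below it in all 5 for WRKY48.

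WRKY62 (AT5G01900) works with WRKY38 below NPR1 as a brake on basal defence. It had 0.264 and 1.09 CPM in RanG22V D3, 1.37 and 1.82 CPM in RanG22V D0, 1.5 and 1.85 CPM in RanT27N D3, 2.68 and 136 CPM in RanT27N D0, and 4.09 and 1.73 CPM in Col D0. A single library, RanT27N D0 replicate 2, was high. WRKY62 fell in RanG22V D0 against RanT27N D0 (log2 fold change -5.44 ± 1.44, SE, adjusted p = 0.0291), and this rested on that library, since without it the value was -0.75 with an adjusted p of 0.694, while without RanT27N D0 replicate 1 it was -6.44. WRKY30 (AT5G24110), which binds WRKY53, WRKY54 and WRKY70 and is linked to senescence, had means of 0.694 ± 0.701 CPM in RanG22V D3, 0.334 ± 0.408 CPM in RanG22V D0, 1.08 ± 0.767 CPM in RanT27N D3, 7.52 ± 7.34 CPM in RanT27N D0 and 1.98 ± 1.24 CPM in Col D0 (SD, n = 2 each). WRKY30 fell in RanG22V D0 against RanT27N D0 (log2 fold change -4.47 ± 1.36, SE, adjusted p = 0.0492). It held 1 and 13 counts in RanG22V D0 and 275 and 59 counts in RanT27N D0, and the value moved to -2.81 without RanT27N D0 replicate 1 (adjusted p = 0.311), to -5.23 without its replicate 2, to -3.58 without RanG22V D0 replicate 1 (adjusted p = 0.211) and to -7.18 without its replicate 2 (adjusted p = 0.0669).

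The other 34 tested factors passed in no comparison by edgeR. DESeq2 called 9 of them in at least 1 comparison, WRKY13, WRKY25, WRKY28, WRKY31, WRKY47, WRKY51, WRKY54, WRKY71 and WRKY72. In subgroup I the factors not called by edgeR were WRKY2, WRKY3, WRKY19, WRKY20, WRKY25 and WRKY32, which lay between 2.47 and 139 CPM. In subgroup IIb they were WRKY9, WRKY31, WRKY36, WRKY42, WRKY47 and WRKY72, all at 11.2 CPM or below, and the smallest adjusted p by edgeR was that of WRKY47 in RanG22V D0 against Col D0 (log2 fold change 1.26 ± 0.45, SE, adjusted p = 0.0703). Subgroup IIc had 8, WRKY8, WRKY13, WRKY23, WRKY28, WRKY48, WRKY51, WRKY59 and WRKY71, up to 112.5 CPM. WRKY51, which acts with WRKY50, came nearest to edgeR's threshold there, in RanG22V D0 against RanT27N D0 (log2 fold change -2.58 ± 0.80, SE, adjusted p = 0.0531). In subgroup IId the uncalled factors WRKY7, WRKY11, WRKY17, WRKY21 and WRKY39 lay between 1.72 and 91.9 CPM, and in subgroup IIe WRKY27, WRKY29 and WRKY65 lay at 6.37 CPM or below. Those of subgroup III were WRKY38, WRKY41, WRKY54, WRKY55, WRKY67 and WRKY70, with the widest range, from 0 to 1000.4 CPM. A p that misses the threshold does not show that these factors were alike between groups.

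**Figure D3:**
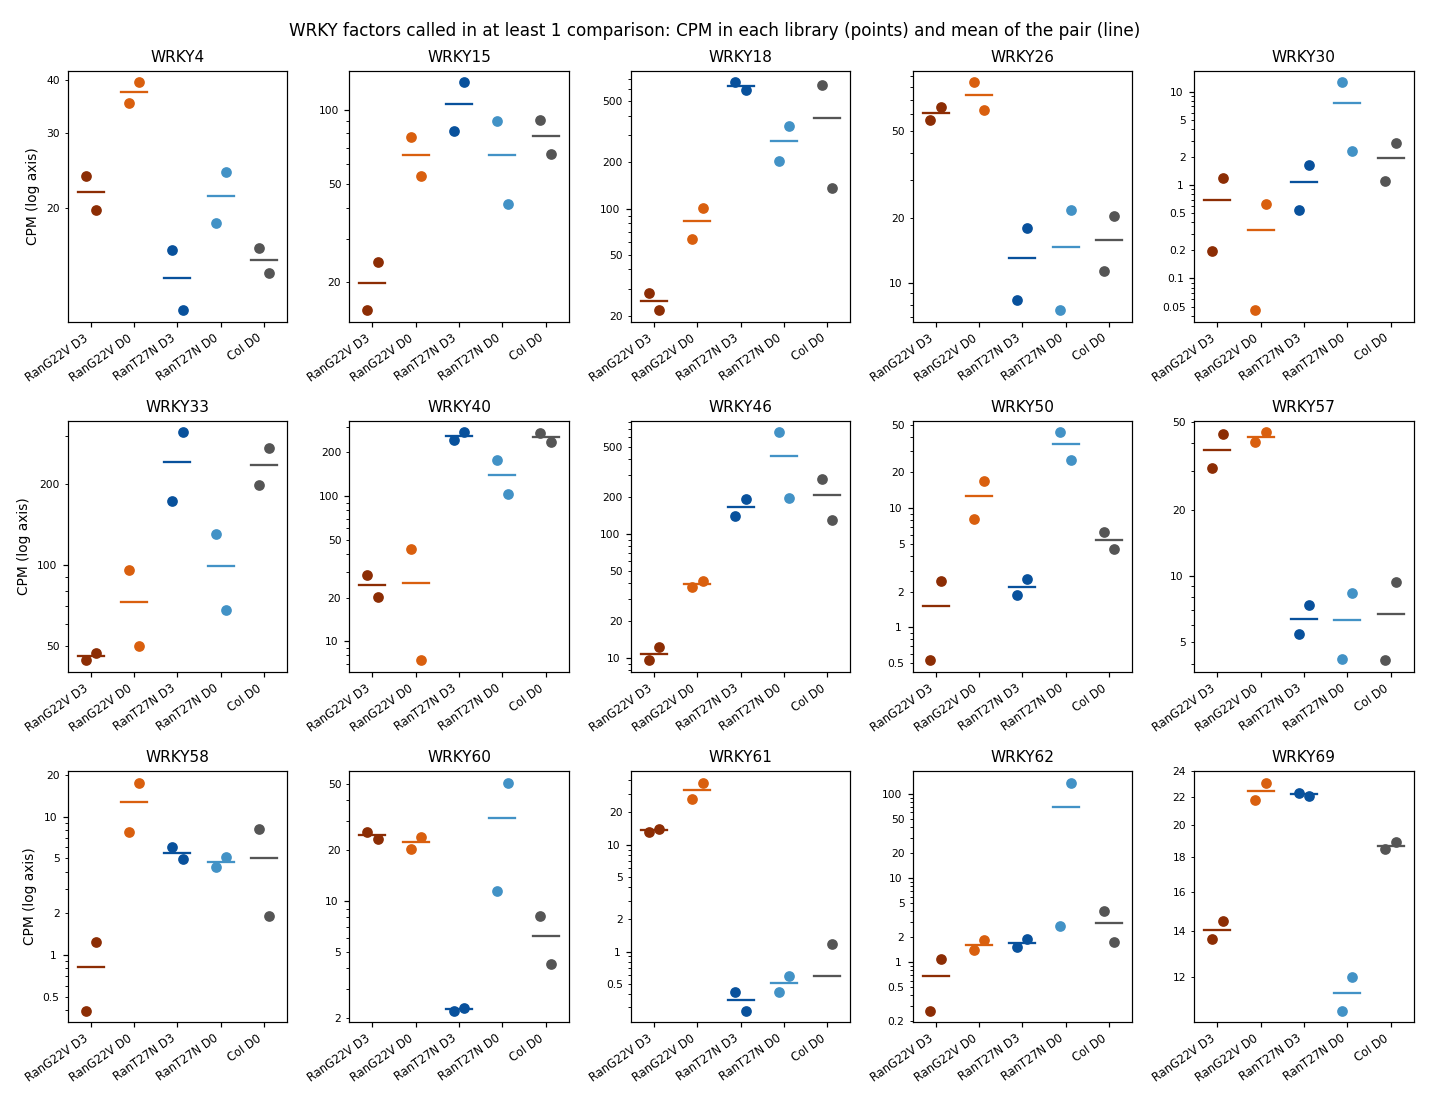
CPM on a log axis for the 15 WRKY factors called in at least 1 comparison, with a point for each library and a line at the mean of each labelled pair. The 4 libraries labelled RanG22V stand above the other 6 for WRKY26, WRKY57 and WRKY61 and below them for WRKY18, WRKY40 and WRKY46. The share of all genes tested that part those 4 libraries from the other 6 was not counted. In RanT27N D0, 1 high library sets the mean of WRKY62. The Col D0 library with 0 CPM of WRKY61 has no point on the log axis.

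The first comparison asked how the lines differ after darkness, by the labels. In RanG22V D3 against RanT27N D3, WRKY26, WRKY57, WRKY60 and WRKY61 rose and WRKY15, WRKY18, WRKY33, WRKY40 and WRKY46 fell. That is 9 of 49 factors called (18.4%), against 10.8% of all genes tested, with 4 higher (3.9% of all genes were higher) and 5 lower (6.92% of all genes were lower). The median log2 fold change of the 49 factors was -0.20, beside 0.01 over all genes. DESeq2 called 14 (28.6%, against 19.3% of all genes by that tool). Under the file headers this comparison is RanT27N D3 against RanT27N D0, the effect of darkness within 1 line. The count was 2 without RanG22V D3 replicate 1, 1 without RanG22V D3 replicate 2, 5 without RanT27N D3 replicate 1 and 4 without RanT27N D3 replicate 2.

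Before darkness by the labels, RanG22V D0 against RanT27N D0 gave increases of WRKY26, WRKY57, WRKY61 and WRKY69 and decreases of WRKY30, WRKY40, WRKY46 and WRKY62. These 8 are 16.3% of the 49 factors, against 17.6% of all genes tested (8.25% higher and 9.36% lower), a share near the background. DESeq2 called 11 (22.4%, against 26.3% of all genes by that tool). The median of the 49 was -0.40, beside -0.07 over all genes. Of the 9 subgroup III factors tested 0 were higher and 3 lower, with a median of -3.43. For those 9 factors the 2 RanT27N D0 libraries were 2.57-fold (WRKY70) to 50.9-fold (WRKY62) apart. Replicate 1 was the higher for WRKY30, WRKY41, WRKY46 and WRKY55, and replicate 2 for the rest. Under the headers the comparison is RanG22V D3 against RanG22V D0, again darkness within 1 line. Without either RanG22V D0 library the count was 3, and without RanT27N D0 replicate 1 it was 4.

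The 2 comparisons just given share no library. Of the 49 factors, 37 (75.5%) had the same sign in both, against 69.7% of all genes tested. WRKY26, WRKY40, WRKY46, WRKY57 and WRKY61 were called in both, each in the same direction, which is 62.5% of the 8 called in the D0 comparison and 55.6% of the 9 called in the D3 comparison. Over all genes tested, the calls in both were 38.5% of the D0 calls and 62.7% of the D3 calls. WRKY60 differed in sign between the 2, at 3.43 ± 0.65 in RanG22V D3 against RanT27N D3 and -0.48 ± 0.58 in RanG22V D0 against RanT27N D0 (log2 fold change, SE). The test of that difference gave 3.92 ± 0.86 on the log2 scale, with an adjusted p of 0.115.

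**Figure D4:**
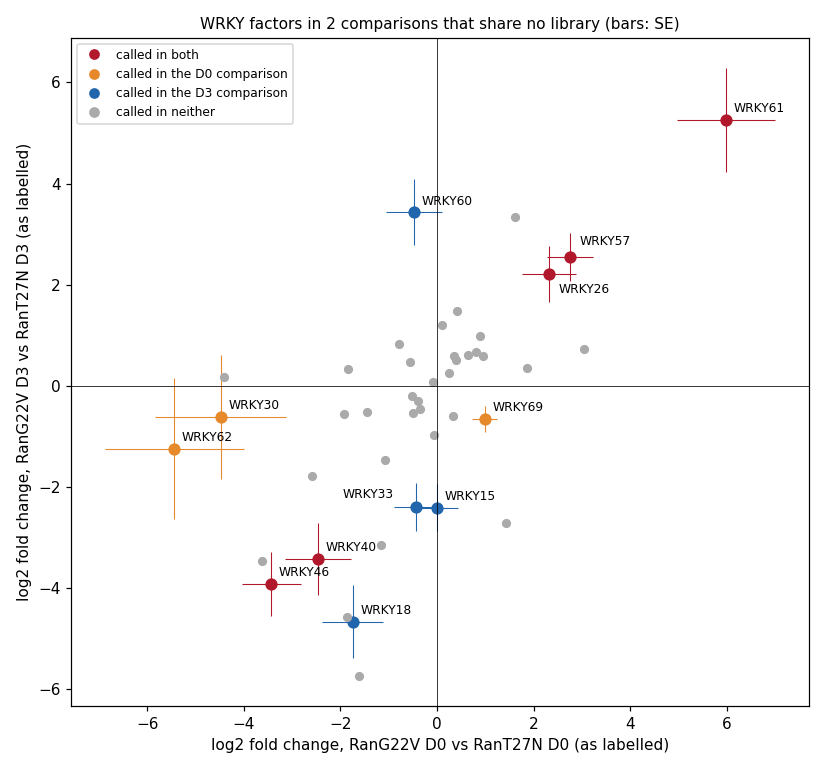
Log2 fold change of 44 WRKY factors in RanG22V D0 against RanT27N D0 (horizontal axis) and in RanG22V D3 against RanT27N D3 (vertical axis), with bars of 1 SE on factors called in either; 5 factors at 0 in a whole group are not drawn. WRKY61, WRKY57 and WRKY26 lie at the upper right and WRKY40 and WRKY46 at the lower left, called in both.

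Against the wild type, RanG22V D0 had WRKY4, WRKY26, WRKY57 and WRKY61 higher and WRKY18, WRKY33, WRKY40 and WRKY46 lower than Col D0. The 8 calls are 16.3% of the 49 factors, against 23.2% of all genes tested (11.1% higher and 12.1% lower), a lower share than the background. DESeq2 called 13 (26.5%, against 30.4% of all genes by that tool). The median log2 fold change of the 49 was 0.60, beside a value that rounds to 0 over all genes. Subgroup IIb had the highest median of the subgroups, 2.62, or 1.96 with the factors at 0 in Col D0 held at their bound. The first value is that of WRKY31, with 7 and 37 counts in RanG22V D0 and 0 and 6 in Col D0. The second is the bound of WRKY72, with 4 and 22 counts in RanG22V D0 and 0 in Col D0. That bound was 3.89-fold, and 1.15-fold without RanG22V D0 replicate 2. Of the 7 subgroup IIb factors tested, 1 was called, WRKY61. Under the headers the pair compared with Col D0 is RanG22V D3. Without either RanG22V D0 library the count was 4.

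RanG22V D3 against Col D0 gave WRKY57 and WRKY61 higher and WRKY15, WRKY18, WRKY33, WRKY40 and WRKY46 lower, 7 calls or 14.3% of the 49 factors, against 11.2% of all genes tested (4.14% higher and 7.05% lower). DESeq2 called 14 (28.6%, against 20.7% of all genes by that tool). The line and the day both differ in this comparison. The median of the 49 was -0.41, or -0.23 with factors at 0 in a group held at their bound. Under the headers it sets RanT27N D3 against Col D0. Without RanG22V D3 replicate 1 the count was 1, and without its replicate 2 it was 2. It shares Col D0 with the preceding comparison, and WRKY18, WRKY33, WRKY40, WRKY46, WRKY57 and WRKY61 were called in each with the values given above.

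For darkness within a line, by the labels, the count of called factors depended on the fit. In RanG22V D3 against RanG22V D0, WRKY50 and WRKY58 fell and 0 rose, 4.08% of the 49 factors against 3.94% of all genes tested (1.17% higher and 2.77% lower). The median was -0.67, beside -0.02 over all genes, and 13 factors (26.5%) had an unadjusted p below 0.05, against 21.9% of all genes. DESeq2 called 8 of the 46 factors to which it gave an adjusted p (17.4%, against 12.8% of all genes by that tool), edgeR called 7 with no filter, 11 when only the libraries compared were fitted and 5 with a replicate block, and in each of these 0 were higher. Of the 49, 26 were lower in both RanG22V D3 libraries than in either RanG22V D0 library and 3 were higher, where 32% of all genes were lower and 27.3% higher without overlap. Under the headers this sets RanT27N D3 against RanG22V D3, a contrast of lines after darkness. The count was 0 without either library of either pair compared and also without either RanT27N D3 library, and 4 without either Col D0 library or without RanT27N D0 replicate 2.

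RanT27N D3 against RanT27N D0 gave 0 called factors by edgeR, against 0.345% of all genes tested. The smallest adjusted p was 0.0518, that of WRKY50, and 16 factors (32.7%) had an unadjusted p below 0.05, against 9.45% of all genes. DESeq2 called 6 (12.2%, against 2.73% of all genes by that tool), with WRKY47, WRKY50, WRKY51, WRKY60 and WRKY62 lower and WRKY69 higher (WRKY47 and WRKY51 are named after their values were seen). WRKY51 had 3.07 and 13.2 CPM in RanT27N D3 and 66.6 and 112 CPM in RanT27N D0, and WRKY47 had 1.5 and 2.19 CPM in RanT27N D3 and 11.2 and 6.55 CPM in RanT27N D0. The median of the 49 factors was -0.50, beside a value that rounds to 0 over all genes, and by subgroup it was -0.12 in I, 0.90 in IIa, -0.53 in IIb, -2.04 in IIc, -0.32 in IId, -0.36 in IIe and -2.25 in III. The RanT27N D0 libraries were far apart for the subgroup III factors, as given above. Without overlap, 21 factors were lower and 5 higher, where 21.5% of all genes were lower and 19% higher. Under the headers the comparison sets RanT27N D0 against RanG22V D0, a contrast of lines before darkness.

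RanT27N D0 and RanT27N D3, each against the wild type Col D0, also gave 0 called factors. For RanT27N D0 against Col D0 this stood beside 0.247% of all genes tested, with 14 factors (28.6%) at an unadjusted p below 0.05, against 8.68% of all genes, and a smallest adjusted p of 0.159. DESeq2 called 5 higher, WRKY47, WRKY50, WRKY51, WRKY60 and WRKY62 (10.2%, against 1.91% of all genes by that tool). The median of the 49 was 0.45, and by subgroup it was -0.10 in I, -0.49 in IIa, -0.18 in IIb, 1.85 in IIc, -0.003 in IId, -0.29 in IIe and 1.93 in III. This comparison and the preceding one share the RanT27N D0 libraries, whose spread for the subgroup III factors is given above. For RanT27N D3 against Col D0, 0% of all genes tested were called, 1 factor (2.04%) had an unadjusted p below 0.05, against 4.04% of all genes, DESeq2 called 0 (0.224% of all genes by that tool) and the median was -0.11. By the labels, the line and the day both differ in RanT27N D3 against Col D0. Under the headers these comparisons are RanG22V D0 and RanT27N D0 against Col D0, lines and wild type all before darkness. WRKY67, with 0 counts in both Col D0 libraries, was at least 8.5-fold higher in RanT27N D0, and WRKY59, with 0 counts in both RanT27N D3 libraries, was at least 11.4-fold lower there than in RanT27N D0, both against a floor of 3 counts per library and neither called. Without RanT27N D0 replicate 2 the bounds were 2.33-fold for WRKY67, which had 8 and 59 counts in RanT27N D0, and 7.16-fold for WRKY59, which had 27 and 69 counts there. In every other library WRKY67 held at most 10 counts and WRKY59 at most 4.

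Whether the difference between days differs between the lines was tested directly, as RanG22V D3 minus RanG22V D0 less RanT27N D3 minus RanT27N D0. By edgeR 0 of the 49 factors were called, against 0.21% of all genes tested, with 8 (16.3%) at an unadjusted p below 0.05, against 12.6% of all genes, and a smallest adjusted p of 0.114. DESeq2 called 5 of the 43 factors to which it gave an adjusted p (11.6%, against 3.71% of all genes by that tool), which were WRKY15, WRKY18, WRKY58, WRKY60 and WRKY69. Under the headers the same test compares the lines with the sign turned round.

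Around the WRKY factors, a list of 26 genes of their pathway was read from the same tests, and all 26 passed the filter. It holds the kinases above them, the VQ proteins that bind them, and genes of salicylic acid, camalexin and pathogenesis-related proteins. In RanG22V D3 against RanT27N D3, 0 rose and 3 fell (11.5% of the list, against 10.8% of all genes tested), which were the salicylic acid receptor NPR3 (log2 fold change -2.56 ± 0.36, SE), MPK4, which holds WRKY33 through MKS1 (-1.65 ± 0.33), and the kinase MPK3, which phosphorylates WRKY33 (-1.75 ± 0.47). In RanG22V D3 against Col D0, 0 rose and 6 fell (23.1%, against 11.2% of all genes tested), among them NPR3 (-2.53 ± 0.36), MPK4 (-1.72 ± 0.33), the transcription factors CBP60g (-3.48 ± 0.88) and SARD1 (-1.26 ± 0.35), which switch on salicylic acid synthesis, the salicylic acid transporter EDS5 (-2.49 ± 0.63) and the immune regulator EDS1 (-2.44 ± 0.68). The list median was -1.06 in RanG22V D3 against RanT27N D3 and -1.48 in RanG22V D3 against Col D0.

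In RanG22V D0 against RanT27N D0, 0 of the 26 rose and 8 fell (30.8%, against 17.6% of all genes tested). They include PR5 (-6.47 ± 0.94) and PR2 (-4.17 ± 0.92), pathogenesis-related proteins of the apoplast and vacuole, EDS5 (-3.54 ± 0.66), EDS1 (-2.42 ± 0.67) and the camalexin enzymes PAD3 (-1.56 ± 0.40) and CYP71A13 (-3.05 ± 0.88), both targets of WRKY33 (log2 fold change, SE). The remaining pair that fell was MPK3 and NPR3. Some of these genes were far apart in the 2 RanT27N D0 libraries. CYP71A13 had 22.5 and 147 CPM there, EDS1 85.0 and 25.6 CPM and PR5 1425 and 440 CPM. For EDS5 those libraries were close, at 157 and 151 CPM. In RanG22V D0 against Col D0, the defence marker NHL10 (3.49 ± 0.83) and PR1 (4.40 ± 1.19) rose. EDS5 (-2.49 ± 0.63) and MPK3 (-1.72 ± 0.47) fell. These calls were 15.4% of the list, against 23.2% of all genes tested. PR1 had 80.8 and 300 CPM in RanG22V D0 and 1.40 and 16.7 CPM in Col D0.

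Between days, by the labels, the list gave 0 higher and 2 lower genes under each line label (7.69%). The called share of all genes tested was 3.94% for RanG22V and 0.345% for RanT27N. PR1 (-6.45 ± 1.32) and NPR3 (-1.63 ± 0.35) fell in RanG22V D3 against RanG22V D0, and PR5 (-5.93 ± 0.91) and PAD3 (-2.49 ± 0.41) fell in RanT27N D3 against RanT27N D0. PR5 (5.88 ± 0.91) was the 1 list gene that rose in RanT27N D0 against Col D0 (3.85%, against 0.247% of all genes tested), and 0 of the 26 were called in RanT27N D3 against Col D0 or in the test of the difference between lines. The list was chosen with earlier results of these data known, so its counts are a description.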

How the data were processed

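RNA of Arabidopsis leaves was sequenced in 10 libraries, 5 labelled groups of 2, prepared per the labels with a Lexogen Quant-Seq kit. The authors deposited raw read counts, whole numbers per gene, with a separate file for each library. The submitters' processing notes name the aligner Bowtie2, the package edgeR and the genome build TAIR10. The sources used here give neither their versions, nor the program that counted reads, nor whether counting used the strand. Without a stated strand setting, overlapping genes on opposite strands can share reads. Groups and replicate numbers come from the sample titles. Reads carry no molecular identifiers, so intervals and floors cover counting error only.

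Row names were paired with loci through the RefSeq gene table of TAIR10.1 (32576 of 33028 rows, 98.6%; 429 rows share a name with another row). Promoter sequences and coordinates are those of RefSeq TAIR10.1, and coordinates of the submitters' build were not used here. Tests were run in edgeR 4.0.16 under R 4.3.3. The filter was filterByExpr with a minimum count of 10 (21475 genes, 49 of the 62 factors) and the scaling was TMM. A single model with a mean for each of the 5 groups was fitted to the 10 libraries, and its biological coefficient of variation was 45%. Quasi-likelihood tests were adjusted by Benjamini and Hochberg over all genes tested, and genes were called at an adjusted p below 0.05. The SE is the log2 fold change over the root of the test statistic. A factor at 0 in a whole group has its fold given as a bound, against a floor of 3 counts per library. The scripts were tested on simulated counts.

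Factors, subgroups, the pathway list and the tests were chosen with earlier results of these data known. Every called factor is named. Values per library are given for the 12 factors with the smallest adjusted p and for WRKY18, WRKY25, WRKY33, WRKY40, WRKY46, WRKY54, WRKY55, WRKY57, WRKY60 and WRKY70, and others are described by mean, count or range. Up to 6 pathway genes a comparison are given with values. Alternatives were DESeq2 1.42.0 and its size factors, no filter and a stricter one, counts without ribosomal RNA rows, a fit of only the libraries compared, a replicate block, and leaving out each library.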

Additional observations from a re-analysis of the deposited data

How the results depend on the processing

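No call of a factor reversed its direction under any alternative run. Of the 34 calls (a factor in a comparison), all 34 were kept by DESeq2, DESeq2's size factors, leaving out ribosomal RNA rows, the stricter filter and the replicate block, 33 without a filter (WRKY69 lost, adjusted p = 0.0758) and 28 when only the libraries compared were fitted, where WRKY33 and WRKY18 in RanG22V D0 against Col D0, WRKY40, WRKY62 and WRKY30 in RanG22V D0 against RanT27N D0, and WRKY61 in RanG22V D3 against Col D0 were lost. Counts of called factors grew under DESeq2, to 14 in RanG22V D3 against RanT27N D3, 14 in RanG22V D3 against Col D0, 13 in RanG22V D0 against Col D0, 8 in RanG22V D3 against RanG22V D0, 6 in RanT27N D3 against RanT27N D0, 5 in RanT27N D0 against Col D0 and 5 in the test of the difference between lines. With no filter the counts were, in the same comparisons except RanG22V D0 against Col D0, 16, 15, 7, 5, 5 and 5. With only the libraries compared, RanG22V D3 against RanG22V D0 gave 11. The cause of these shifts was not tested.

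Whether the replicate numbers pair the samples is not given by the labels, and the file headers write them as a set number without saying what a set is. Over all genes, the correlation of the replicate differences was 0.124, 0.188 and 0.31 among Col D0, RanT27N D0 and RanT27N D3. In the other 7 pairs of groups it ran from -0.008 to 0.067. Over the 49 factors tested the correlation was above that of all genes in most pairs of groups. It ran from 0.002 (RanT27N D0 with RanG22V D0) to 0.51 (Col D0 with RanT27N D3), with 0.354 for RanT27N D3 with RanG22V D3. The fit without a block was kept because the labels do not say that a number is a shared batch. With a replicate block RanG22V D3 against RanG22V D0 gave 5 called factors and RanT27N D0 against Col D0 gave 1, and with the block in only the 6 libraries concerned RanT27N D3 against RanT27N D0 and RanT27N D0 against Col D0 gave 1 each.

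Leaving out 1 library at a time kept 250 of 340 calls. The lone library of a pair is then assumed to vary like the other groups. The count of called factors ran from 1 to 11 in RanG22V D3 against RanT27N D3, from 1 to 9 in RanG22V D3 against Col D0, from 3 to 10 in RanG22V D0 against RanT27N D0, from 4 to 9 in RanG22V D0 against Col D0, from 0 to 4 in RanG22V D3 against RanG22V D0, from 0 to 2 in RanT27N D3 against RanT27N D0, from 0 to 2 in RanT27N D0 against Col D0, from 0 to 0 in RanT27N D3 against Col D0 and from 0 to 1 in the test of the difference between lines. WRKY40, WRKY57 and WRKY61 in RanG22V D0 against Col D0, and WRKY57 and WRKY61 in RanG22V D0 against RanT27N D0, kept their call in all 10. The fewest kept were 4 of 10. That was so for WRKY26 in RanG22V D3 against RanT27N D3 and WRKY30 in RanG22V D0 against RanT27N D0. It also held for WRKY50 and WRKY58 in RanG22V D3 against RanG22V D0.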
